A study of Mus musculus with 4 samples.

Results

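Genes of the collagen and laminin matrix were followed across 4 cultured mouse melanoma lines. The members were the collagen chains (symbols built as Col, number, a, number), the laminin chains (Lama, Lamb and Lamc with a number) and 18 other named genes for matrix proteins and for enzymes and chaperones of collagen. Under these symbols the array held 63 probes of 58 genes, among 33012 probes in all. Of the 18 named genes, Nid1 and Hspg2 had no row under their symbols in the table used, and neither had Lama3 and Lama5. One probe that carries a second gene symbol beside that of a collagen chain was left out. The lines were B16, a melanoma line of C57Bl6 mice that had not been passaged in the animal (B16F1 in the protocols), B16-RI, grown out of lymph nodes colonised after B16 was injected once into the skin, and B16-RII and B16-RIIL, which came from lymph nodes and from lungs after B16-RI had been injected in turn, so that both had passed 2 injection rounds. The cells carried no engineered allele according to the labels, received no drug and grew in medium with 20% fetal bovine serum for up to 10 passages. The protocols name a concentration for the culture dishes but not the substance, so a matrix coating cannot be told from them. The protocols mention duplicate cultures and RNA pooled over passage numbers, and the labels describe 1 sample per line, so 1 array per line was analysed here. Columns of second arrays match no sample label and were not used. Differences between lines therefore have no replicate check here, and no test was run. Chemiluminescence of digoxigenin-labelled cRNA gave each probe 1 signal per array. Signals are given as the normalized signal deposited by the authors, a raw intensity divided by a constant. A probe was detected when its signal-to-noise ratio (S/N) was at least 3 and its flag at most 5000. Lines were called apart when the signals differed at least 2-fold, which is 1 log2 unit, and the probe was detected on the brighter array. Where the dimmer array had not detected the probe, the ratio is a bound, written as at least N-fold.

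Collagens are proteins of the extracellular matrix, or in some types of the cell membrane, built from chains that wind around each other into a triple helix. In the endoplasmic reticulum prolines and lysines of the chains are hydroxylated and chaperones hold the helix. Outside the cell the ends of fibrillar procollagens are cut off, fibrils form, and lysyl oxidases crosslink them. Basement membranes are sheets of laminin and type IV collagen networks, linked by nidogens and perlecan, to which melanocytes attach in normal skin. In tumours much of the fibrillar matrix is made by fibroblasts, and melanoma cells contribute some components of their own.

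Detection of the matrix genes in these melanoma cultures differed by role. Of the 63 member probes, 17 were detected on all 4 arrays, 17 on some and 29 on none. The share of member probes detected on all arrays was 27.0%, against 35.2% of all probes. On none it was 46.0% against 43.4%. By array, 23 member probes were detected on B16, 22 on B16-RI, 24 on B16-RII and 24 on B16-RIIL, or 36.5%, 34.9%, 38.1% and 38.1%, against 43.5%, 42.0%, 44.7% and 45.0% of all probes. Among collagen chains, 19 of 33 genes were detected on at least 1 array, and among laminin chains 5 of 9. All 6 enzymes and chaperones of the endoplasmic reticulum were detected on 3 or more arrays, whereas of the 3 small leucine-rich proteoglycans Lum alone passed, on 1 array. The genes detected on no array included Col3a1, Col5a2, Col11a1 and Col27a1 of the fibrillar collagens, Col4a3 and Col18a1 of the basement membrane collagens, Col9a2, Col9a3 and Col12a1 of the fibril-associated collagens, Col6a1, Col8a1 and Col10a1 of the network and beaded collagens, Col13a1 and Col23a1 of the transmembrane collagens, the laminin chains Lama1, Lama2 and Lamb1-1 (Lamb1), Fbn1, Fbn2, Bgn, Dcn, Lox and Loxl1. The highest S/N of any member probe detected on no array was 2.85, for Col5a2 on B16-RIIL.

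**Figure D1:**
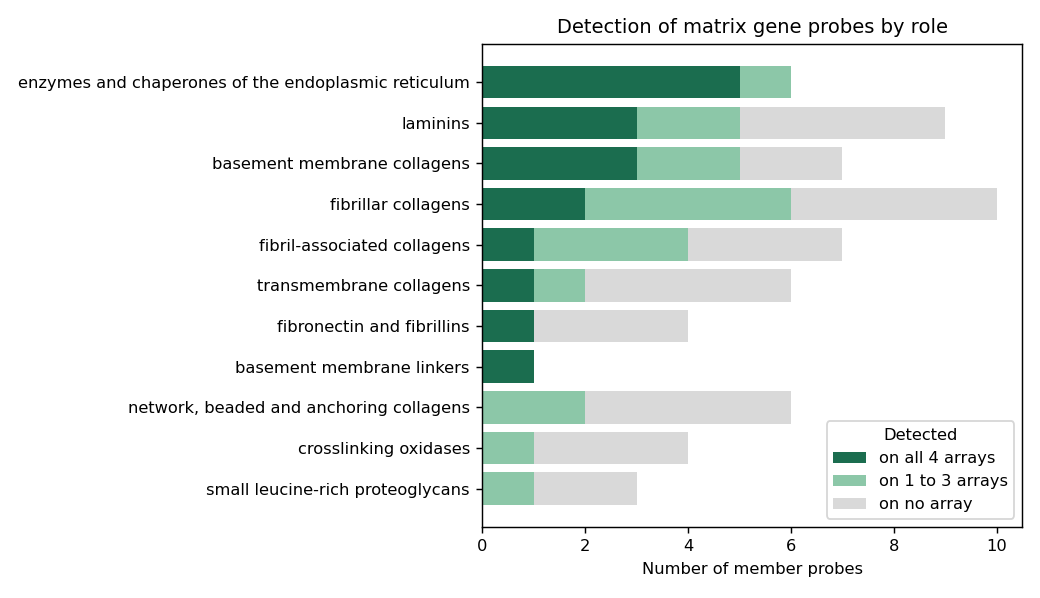
Number of member probes detected on all 4 arrays (dark green), on 1 to 3 arrays (light green) and on no array (grey), by the role of the gene. The enzymes and chaperones have 5 of 6 probes detected on all 4 arrays, whereas the network, beaded and anchoring collagens, the crosslinking oxidases and the small leucine-rich proteoglycans have none.

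Markers of other cell types were looked at beside these genes. All 5 probes of melanocyte genes (Tyr, Tyrp1, Dct, Si and Mitf) were detected on every array. Their deposited signals summed to 5632, 6896, 6715 and 6951 from B16 to B16-RIIL, mostly from Tyrp1, Dct and Si. Tyr and Mitf were dimmer than on B16 on B16-RI and B16-RIIL. In set-centred values, explained below, all 5 lay below B16 on every passaged array. These differences ran from -0.045 log2 units (Tyrp1 on B16-RI) to -0.69 (Mitf on B16-RI). The higher sums on the passaged arrays therefore depended on the scaling. Of 12 probes of fibroblast genes outside the matrix list, 2 were detected on B16, 1 on B16-RI, 1 on B16-RII and 0 on B16-RIIL. The signals of all 12 summed to 11.1, 12.5, 8.53 and 8.17. These sums include the probes not detected, and on B16-RIIL they hold no detected signal, so they are no measure of fibroblast transcripts. Pdgfra, Thy1, Twist2, Prrx1, Fap and Tagln were detected on no array. Pdgfrb was detected on B16, B16-RI and B16-RII with S/N of 9.73, 4.88 and 4.30, and Postn on B16 with an S/N of 3.28. Of 7 endothelial probes 1 of the 2 Prox1 probes was detected on B16-RIIL, and of 7 macrophage probes 1 Csf1r probe was detected on B16 and the other on B16-RII. The 1 keratinocyte probe, of Trp63, was not detected on any array. The part of other cell types in the values below was not tested.

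The member probes called apart from B16 were counted beside the share called among all probes. On B16-RI 6 member probes were above B16, 9.52% of the 63, against 4.95% of all probes, and 3 were below, 4.76% against 4.55%. On B16-RII 4 were above, 6.35% against 6.51%, and 3 were below, 4.76% against 3.79%. On B16-RIIL 4 were above, 6.35% against 6.42%, and 5 were below, 7.94% against 4.25%. With each of the 2 probe sets (described next) centred on its own median, the counts above and below became 5 and 4 on B16-RI (3.86% and 5.48% of all probes), 4 and 6 on B16-RII (3.30% and 5.66%), and 2 and 6 on B16-RIIL (4.10% and 5.24%). After quantile normalization, the method named in the paper, they were 6 and 3 (4.50% and 5.39% of all probes), 4 and 4 (4.82% and 4.54%), and 2 and 6 (5.49% and 4.89%). With 75th percentile scaling they were 6 and 3 (4.12% and 5.33%), 4 and 5 (3.78% and 5.45%), and 2 and 6 (4.66% and 5.47%).

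The deposited values carried a shift between arrays that bears on every small difference. They were made with 2 constants per array, 1 for a set of 16524 probes, which holds 35 of the member probes, and 1 for the other 16488 probes, which hold 28. In the first set, probes with signal on all 4 arrays lay at a median of 0.39 log2 units over B16 on B16-RI, 0.41 on B16-RII and 0.46 on B16-RIIL. In the second set these medians were 0.069, 0.42 and -0.0084. The 17 member probes detected on every array had median differences from B16 of 0.18, 0.27 and 0.28 log2 units, beside 0.21, 0.41 and 0.22 for all 11604 such probes. Of the 17, 12 were brighter than on B16 on B16-RI, 15 on B16-RII and 13 on B16-RIIL. With each set centred, 7, 5 and 8 of the 17 were, and the member medians were -0.11, -0.16 and -0.10. Values relative to the own probe set are given below as set-centred differences.

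**Figure D2:**
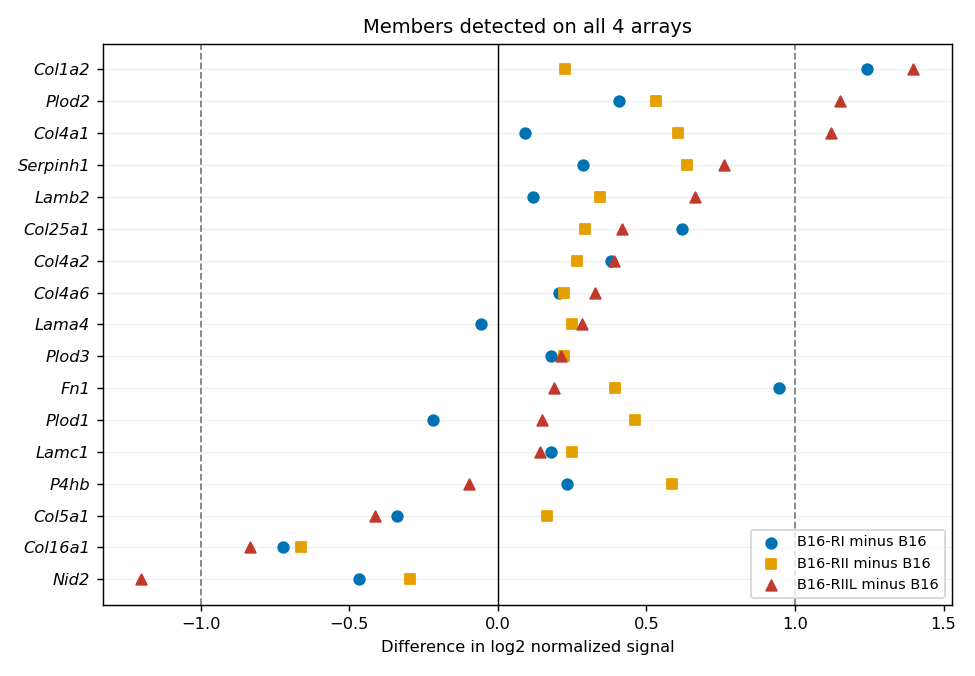
Difference in log2 normalized signal from B16 for the 17 members detected on all 4 arrays, on B16-RI (circles), B16-RII (squares) and B16-RIIL (triangles), with dashed lines at 2-fold. Col1a2 lies beyond the upper line on B16-RI and B16-RIIL, Plod2 and Col4a1 on B16-RIIL, and Nid2 beyond the lower line on B16-RIIL.

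Rcn3 differed most among the genes of the endoplasmic reticulum. It encodes reticulocalbin 3, a calcium-binding protein of this compartment that takes part in collagen production. B16 gave a normalized signal of 0.84, not detected (S/N 1.34), and the passaged lines gave 6.86 on B16-RI, 8.75 on B16-RII and 11.0 on B16-RIIL, with S/N of 16.9, 17.2 and 21.2 on the passaged arrays. All 3 passaged lines were above B16, by at least 8.17-fold, 10.4-fold and 13.1-fold. More cells with the transcript and more transcript per cell cannot be told apart in RNA of a whole culture. Under the other scalings this bound on B16-RIIL lay between 3.48 and 3.71 log2 units. Whether B16-RII lay above B16-RI depended on the scaling. In set-centred values the differences from B16 were at least 3.02 on B16-RI and at least 2.96 on B16-RII. The promoter of Rcn3 on the minus strand of chromosome 7 (chr7:45092164-45092463, GRCm38.p6, from RefSeq, 250 bases before to 50 after the gene start) is shown because Rcn3 was the member not detected on B16 and detected on every passaged array. Capitals in the sequences printed here mark 4 motifs that were searched on both strands, namely the CCAAT box, the GC box written GGGCGG, the core written ACGTG that E-boxes and hypoxia elements share, and the TATA box written TATAAA.
Rcn3: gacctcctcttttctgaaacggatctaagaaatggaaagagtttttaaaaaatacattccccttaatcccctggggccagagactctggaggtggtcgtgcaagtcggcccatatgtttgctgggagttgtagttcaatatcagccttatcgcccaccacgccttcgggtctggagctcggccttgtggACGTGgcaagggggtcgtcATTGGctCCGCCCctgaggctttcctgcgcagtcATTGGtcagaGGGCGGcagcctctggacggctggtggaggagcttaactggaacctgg
The Rcn3 window held 2 CCAAT motifs, 2 GGGCGG motifs and 1 ACGTG motif, and no TATAAA. Among all 32851 promoter windows of this length, 37.4% held CCAAT, 35.7% GGGCGG, 19.6% ACGTG and 13.6% TATAAA on either strand. Windows were found for 37 of the 58 member genes, of which 16 held CCAAT, 26 GGGCGG, 7 ACGTG and 6 TATAAA. A member gene counted when any of its windows held the motif, whereas the shares of all windows are of single windows, from 27025 genes. The counts and the shares are therefore not on the same footing. The M-box core of melanocyte promoters, CATGTG, was held by 3 of the 37 and by 14.2% of all windows, and by none of the windows printed here. A match is a description of the letters and was not tested as a site.

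Plod2, a lysyl hydroxylase that prepares collagen telopeptides for crosslinks, gave 46.8 on B16, 62.2 on B16-RI, 67.7 on B16-RII and 104 on B16-RIIL. It was 2.22-fold above B16 on B16-RIIL, the brightest of the 4 arrays for this probe, and 1.33-fold and 1.45-fold on the others. Of the probes of its own set detected on both arrays, 5.39% lay farther above B16 on B16-RIIL. The call rested on the scaling, since the difference in log2 signal became 0.63 when set-centred, 0.89 after quantile normalization and 0.96 with 75th percentile scaling. Plod1, which hydroxylates lysines within the helix, gave 49.4, 42.4, 67.9 and 54.7, and Plod3, which also adds sugars to hydroxylysine, gave 6.18, 6.99, 7.22 and 7.17. Neither left a band of 2-fold around B16.

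Serpinh1 encodes HSP47, the chaperone that binds folded procollagen. B16 gave a signal of 128, B16-RI 156, B16-RII 199.5 and B16-RIIL 217. In the deposited values every passaged line was above B16, and the difference on B16-RIIL was 0.76 log2 units, or 1.69-fold, below the size limit. On B16-RI the signal was below B16 when set-centred (-0.11) and after quantile normalization (-0.029), so its side of B16 changed with the scaling, and the set-centred difference on B16-RIIL was 0.24. P4hb, the protein disulfide isomerase that serves as the beta subunit of prolyl 4-hydroxylase, gave 776, 912, 1164 and 726, with differences of 0.23, 0.59 and -0.10 log2 units from B16. Which line was highest changed with the scaling, since the set-centred difference was 0.23 on B16-RI and 0.16 on B16-RII, and after quantile normalization both lay below B16 (-0.064 and -0.020). The Serpinh1 promoter on the minus strand (chr7:99353190-99353489, GRCm38.p6) is shown beside that of Rcn3 because both genes lie on chromosome 7 and act in the same compartment.
Serpinh1: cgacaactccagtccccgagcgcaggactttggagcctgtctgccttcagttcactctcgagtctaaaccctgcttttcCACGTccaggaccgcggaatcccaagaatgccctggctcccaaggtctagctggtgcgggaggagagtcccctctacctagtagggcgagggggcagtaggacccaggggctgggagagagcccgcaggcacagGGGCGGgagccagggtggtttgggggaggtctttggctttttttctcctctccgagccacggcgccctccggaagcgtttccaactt
It held 1 GGGCGG motif and 1 ACGTG motif, with no CCAAT and no TATAAA, and its GC content was 62.3%, against 55.3% for the Rcn3 window and a median of 52.7% over all windows.

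**Figure D3:**
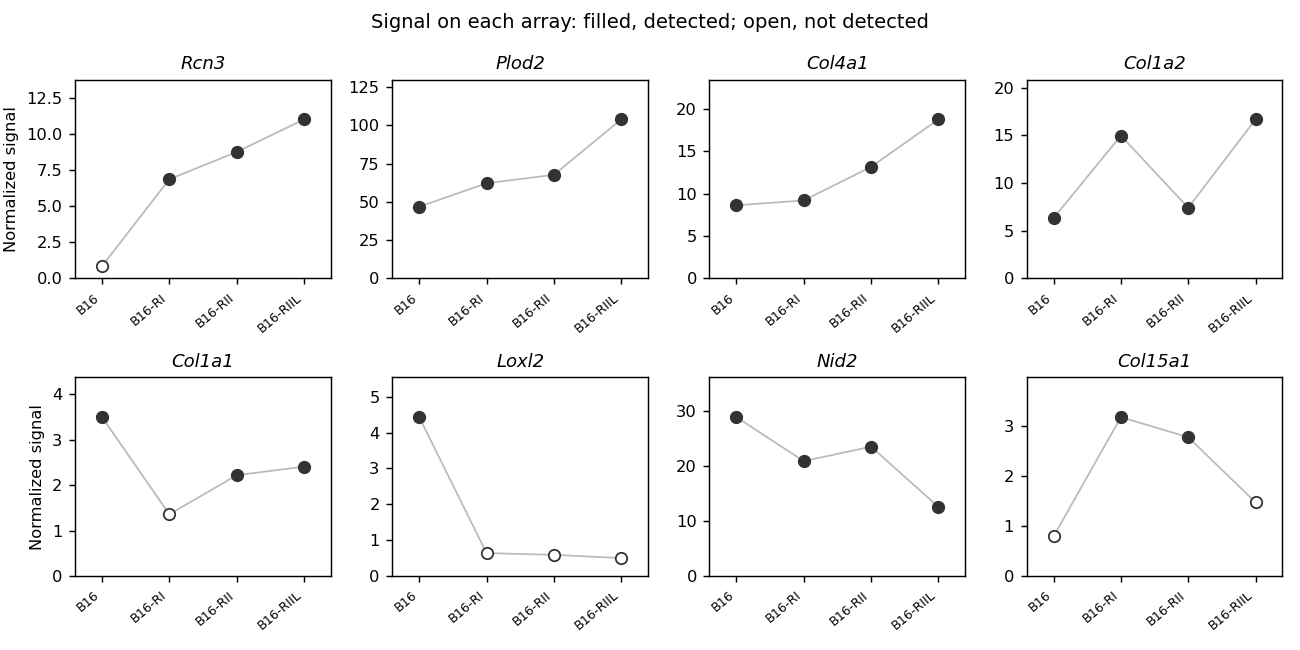
Normalized signal of 8 member probes on each array, with filled points where the probe was detected and open points where it was not; each panel has its own axis from 0. Rcn3 is open on B16 and detected on the 3 passaged arrays, and the Loxl2 probe shown, 1 of 2, is detected on B16 alone.

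The genes of type I collagen, the main collagen of skin and bone, differed in their pattern over the arrays. Col1a2, the alpha 2 chain, gave 6.32 on B16, 15.0 on B16-RI, 7.40 on B16-RII and 16.7 on B16-RIIL. It was high on B16-RI and B16-RIIL and low on B16 and B16-RII. It was 2.37-fold above B16 on B16-RI and 2.64-fold on B16-RIIL, whereas B16-RII was 1.17-fold above. Between the lines of injection round 2 it was 2.25-fold brighter on B16-RIIL than on B16-RII. Of the probes of its own set detected on both arrays, 2.04% lay farther above B16 on B16-RI and 2.26% on B16-RIIL. Set-centred, the differences from B16 were 0.85 and 0.88 log2 units, short of 2-fold, whereas that between B16-RIIL and B16-RII was 1.08. Col1a1, the alpha 1 chain, had signals of 3.50, 1.36, 2.22 and 2.41 and was not detected on B16-RI. It was at least 2.57-fold below B16 there, and 1.58-fold and 1.45-fold below on B16-RII and B16-RIIL, where the set-centred differences of -1.08 and -1.06 log2 units passed the size limit. Both probes belong to the same set, so that a constant per array leaves their contrast as it is. Relative to Col1a1, the Col1a2 signal gained 1.94 log2 units on B16-RIIL and 0.88 on B16-RII, and at least 2.61 on B16-RI, where Col1a1 was not detected.

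The Col1a2 promoter on the plus strand (chr6:4505368-4505667, GRCm38.p6) is shown because Col1a2 lay farthest above B16, in the deposited values on B16-RIIL, among the members detected on every array.
Col1a2: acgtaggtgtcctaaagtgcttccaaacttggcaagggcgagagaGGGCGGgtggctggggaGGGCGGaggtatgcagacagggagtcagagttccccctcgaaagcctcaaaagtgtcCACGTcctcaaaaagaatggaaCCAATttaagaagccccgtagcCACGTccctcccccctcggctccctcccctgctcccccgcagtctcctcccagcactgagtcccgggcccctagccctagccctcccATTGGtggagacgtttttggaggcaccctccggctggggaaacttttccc
It held 2 CCAAT motifs, 2 GGGCGG motifs and 2 ACGTG motifs. A window for Col1a1 was not used here.

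Of the other fibrillar collagens, Col5a1, the chain that starts fibrils of type I collagen, gave 18.5 on B16, 14.7 on B16-RI, 20.8 on B16-RII and 13.9 on B16-RIIL, within 1.33-fold of B16. Col5a3 gave 1.78, 1.70, 1.33 and 2.24, was not detected on B16-RI, and was 1.68-fold brighter on B16-RIIL than on B16-RII, or 1.17 log2 units when set-centred. Col2a1, the collagen of cartilage, was detected on B16-RIIL alone (S/N 9.30), with signals of 0.89, 1.40, 0.57 and 1.41, and was at least 2.47-fold brighter on B16-RIIL than on B16-RII. Col11a2 was also detected on B16-RIIL alone, with signals of 1.67, 1.91, 1.85 and 3.06, at least 1.83-fold above B16.

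In the basement membrane group, Col4a1 and Col4a2, the chains of the common type IV collagen, were detected on every array. Col4a1 gave 8.62 on B16, 9.18 on B16-RI, 13.1 on B16-RII and 18.7 on B16-RIIL. It was brightest on B16-RIIL, 2.17-fold above B16, and the difference of 1.12 log2 units was 1.11 when set-centred, 0.85 after quantile normalization and 0.89 with 75th percentile scaling. Col4a2 had signals of 21.3, 27.7, 25.6 and 27.9, in deposited values between 1.20-fold and 1.31-fold above B16 on the passaged arrays. Set-centred, it lay below B16 on each of them, with differences of -0.017, -0.16 and -0.13 log2 units, so its side of B16 changed with the scaling. Relative to Col4a2, Col4a1 gained 0.73 log2 units on B16-RIIL, but the probes belong to different sets, and the contrast was 1.24 when set-centred and 0.70 after quantile normalization. Both genes lie on chromosome 8, whose 429 probes detected on every array had a median difference of 0.62 log2 units between B16-RIIL and B16. In the set of Col4a1 that median was 0.42, and in the set of Col4a2 it was 0.81, so Col4a1 lay above and Col4a2, at 0.39, below the median of its own set on the chromosome. The part of the chromosome in the Col4a1 value was not tested.

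The promoters of both genes are shown because the genes are read in opposite directions from the same stretch and differed in their change. The Col4a1 window is on the minus strand (chr8:11312777-11313076, GRCm38.p6) and the Col4a2 window on the plus strand (chr8:11312555-11312854).
Col4a1: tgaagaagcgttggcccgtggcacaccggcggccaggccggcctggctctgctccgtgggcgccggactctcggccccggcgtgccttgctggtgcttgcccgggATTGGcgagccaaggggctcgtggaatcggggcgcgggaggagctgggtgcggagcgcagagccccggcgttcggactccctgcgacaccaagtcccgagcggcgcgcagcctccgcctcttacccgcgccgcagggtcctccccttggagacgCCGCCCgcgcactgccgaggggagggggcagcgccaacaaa
Col4a2: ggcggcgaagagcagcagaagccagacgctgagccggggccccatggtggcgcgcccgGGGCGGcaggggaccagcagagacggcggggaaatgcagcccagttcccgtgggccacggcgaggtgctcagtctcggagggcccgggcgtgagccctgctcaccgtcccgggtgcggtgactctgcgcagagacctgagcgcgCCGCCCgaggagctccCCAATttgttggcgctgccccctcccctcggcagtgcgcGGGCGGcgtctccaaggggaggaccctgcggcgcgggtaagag
The windows share 78 bases, from 11312777 to 11312854, and the annotated gene starts lie at 11312826 for Col4a1 and 11312805 for Col4a2, so that the annotated genes overlap by 22 bases. The Col4a1 window held 1 CCAAT motif and 1 GGGCGG motif, the Col4a2 window 1 and 3, and neither held ACGTG or TATAAA. Their GC contents were 74.0% and 73.7%.

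Col4a6, a type IV chain of smooth muscle and some epithelial basement membranes, gave 28.9, 33.4, 33.7 and 36.3, within 1.26-fold of B16. Col4a5, its usual partner, was detected on B16-RII alone, where its signal of 0.64 was lower than the 1.34, 1.13 and 1.06 on B16, B16-RI and B16-RIIL, so no ratio is given. Col15a1, a collagen that joins basement membranes to fibrils, gave 0.79 on B16, 3.17 on B16-RI, 2.77 on B16-RII and 1.47 on B16-RIIL and was detected on B16-RI and B16-RII, the lymph node lines. It was at least 4.01-fold and 3.51-fold above B16 on these, with an S/N of 4.74 on B16-RI. B16-RIIL was at least 1.88-fold below B16-RII, and the set-centred bound of -1.01 log2 units passed the size limit.

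Nid2, nidogen 2, which links laminin and type IV collagen networks, was lower in the lung line. Its signals were 28.95 on B16, 20.9 on B16-RI, 23.6 on B16-RII and 12.6 on B16-RIIL. It was 2.30-fold below B16 on B16-RIIL, and 1.38-fold and 1.23-fold below on B16-RI and B16-RII. Of the probes of its own set detected on both arrays, 1.51% lay farther below B16 on B16-RIIL, and the difference lay between -1.52 and -1.19 log2 units under the other scalings. Against B16-RII the difference was -0.90, below the size limit.

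The laminin chains detected on every array were Lama4, Lamb2 and Lamc1, which together form a laminin of vessels and nerve. Lamb2 gave 51.7 on B16, 56.1 on B16-RI, 65.6 on B16-RII and 81.9 on B16-RIIL, where it was 1.58-fold above B16. Set-centred, its differences from B16 were -0.28 log2 units on B16-RI, -0.084 on B16-RII and 0.14 on B16-RIIL. Lamc1 gave 13.0, 14.8, 15.5 and 14.4, and Lama4 gave 8.57, 8.25, 10.2 and 10.4. The chains differed from B16 by less than 2-fold on every array, and Lamb2, whose probe is in the same set as that of Lamc1, gained 0.52 log2 units over it on B16-RIIL. Lamc3 was detected on B16-RI alone, with a signal of 3.79 (S/N 4.24) against 0.46 on B16, 0.44 on B16-RII and 0.77 on B16-RIIL, at least 8.24-fold above B16. Lamb3, a chain of the epidermal laminin, was detected on B16 alone at the edge of the S/N limit (3.03), with signals of 0.97, 0.60, 0.52 and 0.44, and was at least 2.20-fold below B16 on B16-RIIL. Set-centred, B16-RI and B16-RII also passed the size limit, with bounds of -1.09 and -1.33 log2 units against B16.

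Fibronectin, the adhesive glycoprotein encoded by Fn1, was brightest in the line of the first injection round. Its signals were 17.2 on B16, 33.0 on B16-RI, 22.6 on B16-RII and 19.6 on B16-RIIL. The difference on B16-RI was 0.95 log2 units, or 1.93-fold, just under the size limit, and lay between 0.73 and 0.94 under the other scalings.

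Among fibril-associated collagens, Col16a1 was the member detected on every array, and gave 19.0 on B16, 11.5 on B16-RI, 12.0 on B16-RII and 10.7 on B16-RIIL. The signal was lower in every passaged line, with differences of -0.72, -0.66 and -0.83 log2 units, short of the size limit. After quantile normalization the difference was -1.24 on B16-RII and -1.13 on B16-RIIL, with 75th percentile scaling it was -1.18 and -1.06, and set-centred it was -1.09 and -0.84. Col14a1, which binds fibril surfaces, gave 0.82, 3.03, 2.53 and 0.94 and was detected on B16-RI and B16-RII, the same lines as Col15a1. It was at least 3.70-fold and 3.09-fold above B16 there, and at least 2.69-fold lower on B16-RIIL than on B16-RII. Col9a1 gave 0.58, 1.89, 0.46 and 1.39 and was detected on B16-RI alone (S/N 3.79), at least 3.26-fold above B16. Its signal of 1.39 on B16-RIIL had an S/N of 0.03. Col19a1 gave 0.49, 0.43, 1.48 and 0.50 and was detected on B16-RII alone (S/N 3.21). There it was at least 3.02-fold above B16 and at least 2.96-fold above B16-RIIL.

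Loxl2, Col6a2 and Col7a1 were, like Lamb3, detected on B16 and on no passaged array. Loxl2, a lysyl oxidase that crosslinks collagen, had signals of 4.43 on B16 (S/N 10.1), 0.64 on B16-RI, 0.59 on B16-RII and 0.50 on B16-RIIL on 1 of its 2 probes. It was at least 6.92-fold, 7.51-fold and 8.86-fold below B16 on the passaged arrays. The other Loxl2 probe was not detected on any array, with signals of 0.84, 0.47, 0.48 and 0.57 and an S/N of 2.31 on B16, so the gene rests on a single probe here. Col6a2, a chain of the beaded filaments around cells, gave 2.59, 1.71, 0.50 and 0.53 and was detected on B16 (S/N 5.09). It was at least 5.18-fold below B16 on B16-RII and 4.89-fold on B16-RIIL, and at least 1.51-fold on B16-RI. Col7a1, the anchoring fibril collagen, gave 1.34, 0.35, 0.61 and 0.18 and was detected on B16 close to the limit (S/N 3.45). It was at least 3.19-fold, 2.20-fold and 4.19-fold below B16.

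Of the transmembrane collagens, Col25a1 was bright on every array by 1 probe, with signals of 416, 640, 511 and 556, within 1.54-fold of B16, and was not detected by its other probe, whose signals lay between 0.23 and 0.48. Col17a1, the hemidesmosome collagen, was detected on B16-RIIL alone, with signals of 1.04, 0.40, 0.61 and 1.98 (S/N 6.96), at least 3.25-fold above B16-RII and 1.90-fold above B16. Lum, lumican, gave 1.31, 0.69, 0.72 and 1.45 and was detected on B16-RIIL alone (S/N 3.58), at least 2.01-fold above B16-RII.

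With the lines listed as B16, B16-RI, B16-RII and B16-RIIL, 3 member probes were brighter in each line than in the line before it and at least 2-fold brighter in B16-RIIL than in B16, those of Rcn3, Plod2 and Col4a1. That is 4.76% of the members, against 2.00% of all probes. B16-RII and B16-RIIL share their injection round, so the last step of this list is no passage. The mirrored rule found Loxl2 and Lamb3, 3.17% against 0.921%, and neither was detected on a passaged array, so that the order of their later steps lies in the background. Both orders were tied to the scaling. For the falling order, quantile normalization gave Col6a2 and Nid2 (1.31% of all probes), median scaling Col6a2 alone (0.945%), 75th percentile scaling Lamb3, Loxl2 and Nid2 (1.51%), and set-centred values these 3 and Col6a2 (1.46%). For the rising order, median scaling gave the same 3 members (2.33% of all probes), quantile normalization 0 (1.54%), 75th percentile scaling 0 (1.19%) and set-centred values 1, Col4a1 (0.875%). Between the metastases of round 2, the lung line was above the lymph node line for 4 member probes (Col1a2, Col2a1, Col17a1 and Lum), 6.35% against 3.85% of all probes, and below it for 2 (Col14a1 and Col19a1), 3.17% against 4.73%. Col1a2 was the member among these 6 that was detected on both arrays.

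**Figure D4:**
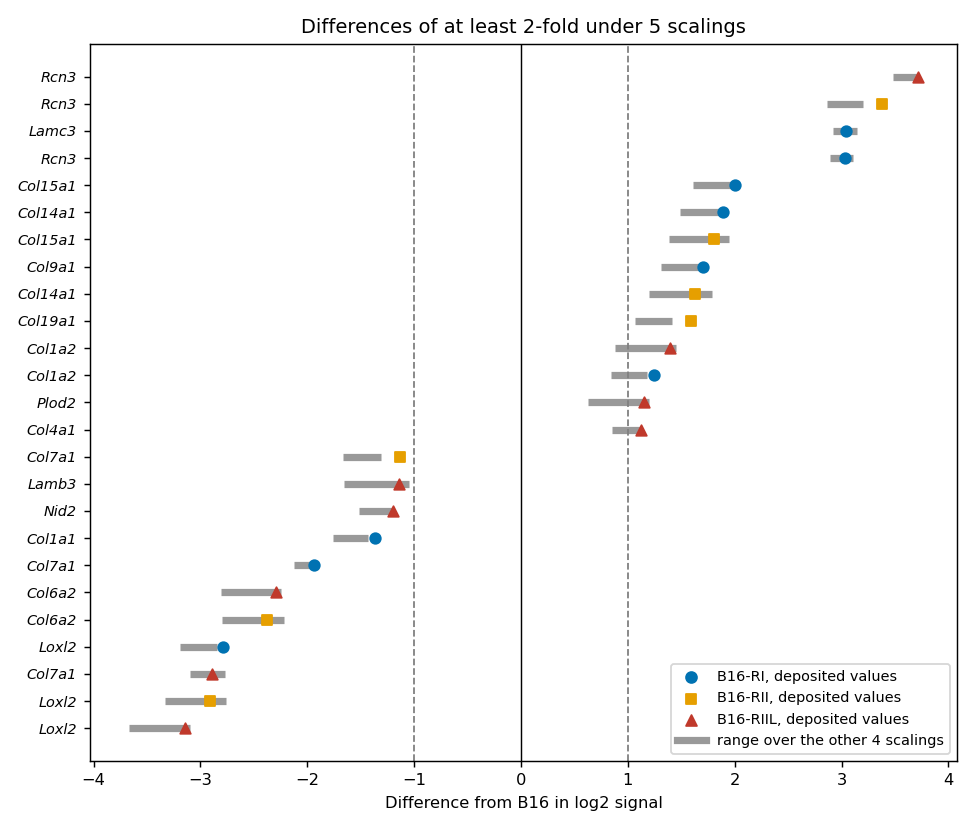
Difference from B16 in log2 signal for the 25 differences of member probes called with the deposited values (symbols as for the lines in the key), with grey bars for the range over the other 4 scalings and dashed lines at 2-fold. The bars of Col1a2, Plod2 and Col4a1 cross the 2-fold line, and no bar crosses 0; for probes not detected on the dimmer array the symbol is the difference of the signals and not a bound.

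Other genes of collagen maturation and turnover, from a list kept apart from the members, were measured by 22 probes of 21 genes, 12 of them detected on all 4 arrays and 5 on none. On B16-RI 2 were above B16 and 2 below (4.95% and 4.55% of all probes), on B16-RII 4 above and 0 below (6.51% and 3.79%), and on B16-RIIL 3 above and 0 below (6.42% and 4.25%), with exceptions under other scalings given beside the genes. The median difference of the 12 was 0.26, 0.60 and 0.42 log2 units, beside 0.21, 0.41 and 0.22 for all probes detected on every array, and -0.015, 0.17 and 0.11 when set-centred. Pcolce, the enhancer of the protease that trims the C-terminal end of procollagen, gave 22.9 on B16, 61.5 on B16-RI, 85.7 on B16-RII and 69.2 on B16-RIIL. It was 2.69-fold, 3.74-fold and 3.02-fold above B16, with S/N of at least 47.8 on every array, and its lowest difference under any other scaling was 1.20 log2 units. Fkbp10, a prolyl isomerase of the endoplasmic reticulum that acts on procollagen, gave 7.21, 9.64, 22.3 and 18.3, and was 3.09-fold above B16 on B16-RII and 2.53-fold on B16-RIIL, the lines of injection round 2. Ddr2, a receptor for fibrillar collagen, gave 18.6, 21.3, 23.9 and 38.4, 2.07-fold above B16 on B16-RIIL but short of 2-fold when set-centred (0.53), after quantile normalization (0.81) and with 75th percentile scaling (0.86). P4ha1 and Leprel1, which hydroxylate prolines, gave 2.15, 0.79, 1.69 and 1.18 and 3.35, 1.02, 2.02 and 2.80. Both were not detected on B16-RI and were at least 2.72-fold and 3.28-fold below B16 there. Leprel1 also passed the size limit below B16 on B16-RII after quantile normalization (-1.06), with 75th percentile scaling (-1.25) and when set-centred (-1.15), and P4ha1 on B16-RIIL with 75th percentile scaling (-1.09). P4ha3 on B16-RI and Adamts2 and Tll2 on B16-RII were each detected on that array alone, with S/N of 3.27, 4.79 and 4.44, and lay above B16 by at least 1.58, 2.20 and 2.47 log2 units.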

How the data were processed

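Total RNA of 4 cultured lines was labelled with digoxigenin and hybridized to mouse whole-genome arrays of Applied Biosystems, and 1 array per line was analysed. The authors deposited a raw intensity from the chemiluminescence analyzer and a normalized intensity for each probe, and the S/N ratio and flag as scores of the analyzer. The normalized intensity was the raw intensity divided by 1 of 2 constants per array (all values within 0.5% or 0.02), so quantile normalization, stated in the paper, was not part of these values. An aligner or genome build is not given in the sources used here. Of the deposited columns, 16 columns of the 4 arrays were read. Left unused were 14 columns that the authors derived from these arrays and 30 that belong to second arrays without a matching sample label (20 with values per array, 10 with ratios).

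Members and gene lists were chosen with earlier results of these data known. No pseudocount was added before log2. For a probe not detected on 1 of 2 arrays, the dim array entered with its own signal or, where larger, with its detection floor, the lowest signal it detected (0.31 on B16, 0.42 on B16-RI, 0.37 on B16-RII and 0.32 on B16-RIIL). Member probes called apart on any passaged array are given with their signals on all arrays, members detected on all arrays are given with theirs, and those detected on none are named, apart from an item not reported here. Alternatives were quantile, median and 75th percentile scaling of raw intensities, centring of each probe set on its median over probes detected on all arrays, an S/N limit of 5, detection on all arrays, a 4-fold limit and 1 probe per gene, the brightest. The counting rules were tested on simulated data with changes planted in brighter probes alone, so calls on probes near the background were not covered. Gene names, chromosomes and promoter windows came from RefSeq tables of GRCm38.p6, which matched all 58 member genes. Calculations used pandas 2.3.3 with numpy 2.4.6 under Python 3.11.15, and matplotlib 3.10.9 drew the plots. Precision is limited by the number of arrays, and without replicates no p-value was computed.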

Additional observations from a re-analysis of the deposited data

How the results depend on the processing

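Of 31 differences of member probes called with the deposited values, 4 other scalings gave 124 values, of which 117 stayed at or beyond 2-fold, 7 fell short of it and 0 changed sign. The 7 belonged to Col1a2, Plod2 and Col4a1. For 14 counts and medians, these scalings and the other filters together gave 104 values. Of these, 65 stayed within 1.5 times for a count or 0.2 log2 units for a median, 34 moved farther and 5 medians changed sign. For changes under another scaling the cause was not tested. No paired analysis was possible because the labels give 1 sample per line, and no replicate could be left out among the arrays used. Signal over background limits the results, since 46.0% of the member probes and 43.4% of all probes were detected on no array.

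Shares of all probes called are given in parentheses. Counts and medians not listed for a setting stayed within the limits just given. With quantile normalization, 2 members were above B16 on B16-RIIL (5.49%) and 0 rising (1.54%), and the member medians were -0.044 on B16-RI, -0.023 on B16-RII and 0.068 on B16-RIIL, where the medians of all such probes were -0.0066, -0.0085 and -0.0087. With 75th percentile scaling, 2 were above on B16-RIIL (4.66%), 5 below on B16-RII (5.45%) and 0 rising (1.19%), and the median on B16-RII was 0.062. With median scaling 1 member was falling (0.945%). With each probe set centred, 2 were above on B16-RIIL (4.10%), 6 below on B16-RII (5.66%), 1 rising (0.875%) and 4 falling (1.46%), and the medians were -0.11, -0.16 and -0.10.

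Stricter filters can only lower the counts. With an S/N of at least 5, 2 were above (2.53%) and 1 below (2.18%) on B16-RI, 3 below on B16-RIIL (1.88%), 1 lower on B16-RIIL than on B16-RII (2.61%) and 1 falling (0.412%). With detection on all 4 arrays, 1 was above (1.13%) and 0 below (0.551%) on B16-RI, and 0 above (2.38%) and 0 below (0.239%) on B16-RII. On B16-RIIL 3 stayed above (2.07%), Col1a2, Col4a1 and Plod2, and 1 was below (0.527%). Between the lines of round 2, 1 was higher (0.270%) and 0 lower (1.14%) on B16-RIIL than on B16-RII. Under this filter 2 stayed rising (0.978%), Col4a1 and Plod2, and 0 were falling (0.136%). At 4-fold, 3 were above (1.61%) and 1 below (1.15%) on B16-RI, 1 above on B16-RII (1.44%), 1 above (1.55%) and 3 below (1.30%) on B16-RIIL, 0 higher (0.909%) and 0 lower (1.05%) on B16-RIIL than on B16-RII, 1 rising (0.554%) and 1 falling (0.412%). With 1 probe per gene each count stayed within 1.5 times and each median within 0.2 log2 units.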
